A study of Rattus norvegicus with 13 samples.

Results

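The windows described here are the meiotic DSB hotspot windows that start in the first 10 Mb of the rat autosomes. They were chosen by position alone: every window of the hotspot table on chromosomes 1 to 20 whose start lay below 10000000 bp of the rn5 assembly was a member, and no strength or call entered the choice. There were 5852 such windows among 91120 autosomal windows and 96640 windows on all chromosomes. The first 10 Mb of the 20 autosomes make up 200 Mb, or 7.28% of an autosomal length of 2746 Mb, where each length was taken from the end of the last window of a chromosome.

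The measurement was DMC1 SSDS, in which an antibody against the DMC1 recombinase recovers the single-stranded DNA at meiotic DSBs from adult testis. Of the 13 samples in the series, 5 have columns in the table, with 1 library for each condition: SHR/OlaIpcv (SHR) rats that were wild-type, Prdm9+/- (KO/wt) or Prdm9-/- (KO/KO), and wild-type rats of the WKY and BN/RIJHsd (BN) strains. The Prdm9 allele is shared by SHR and WKY, whereas that of BN differs. The other libraries, for H3K4me3 and input, were not analysed here.

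PRDM9 binds DNA through its zinc fingers and trimethylates lysine residues of histone H3 at the bound nucleosomes, and in mice and humans these marked sites are where most meiotic DSBs are made. Different Prdm9 alleles encode different zinc fingers and therefore direct DSBs to different places. Without PRDM9, DSBs are made at other places, called default sites, many of them at promoters in the mouse. The ends of chromosomes are a known exception to average behaviour, since male recombination in mammals is often raised near telomeres and low next to centromeres. Among rat autosomes, the start of the assembled sequence lies by the centromere in the acrocentric chromosomes.

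The KO/KO males were homozygous for the KO39 allele made with zinc-finger nucleases, a line with a deletion that truncates the protein. The cDNA around the deletion is shown because it defines which libraries had PRDM9. The capitals mark the 29 bases that KO39 lacks, in 1 possible placement, between 30 unchanged bases on either side, 5′ to 3′.
Prdm9 wild-type SHR: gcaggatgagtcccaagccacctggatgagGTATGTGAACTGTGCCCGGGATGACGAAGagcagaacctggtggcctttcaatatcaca
Prdm9 KO39: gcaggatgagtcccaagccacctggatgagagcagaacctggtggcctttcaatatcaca

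For each library the authors gave a strength to every window and marked the windows called as hotspots. The strength is a whole number of unknown scaling that can be negative, and it cannot be turned into read counts, so the depth behind a single strength is unknown. To compare libraries, negative strengths were set to 0 and each library was scaled to its autosomal sum. With 1 library per condition there was no replicate error and no test between conditions. The intervals printed are Wilson 95% intervals or, for ratios between libraries, normal 95% intervals on the log scale. Both cover only the counting of windows or hotspots. Neighbouring windows are not independent, so that the spread between chromosomes is given beside the main results where it was computed.

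DSBs were made in the first 10 Mb in all 5 libraries, at slightly less than the average strength per Mb. The wild-type SHR library placed 7.04% (6.59 to 7.51) of its autosomal strength there, the KO/wt library 6.65% (6.18 to 7.17) and the KO/KO library 6.75% (6.39 to 7.12). The WKY share was 6.43% (6.10 to 6.78) and the BN share 6.40% (6.005 to 6.81). All 5 shares lay below the 7.28% that the region takes of the length, and only the interval of wild-type SHR reached it. Expressed as strength per Mb in the first 10 Mb over strength per Mb elsewhere, the density ratio was 0.964 (0.898 to 1.03) for wild-type SHR, 0.907 (0.838 to 0.982) for KO/wt, 0.921 (0.869 to 0.975) for KO/KO, 0.875 (0.827 to 0.926) for WKY and 0.870 (0.813 to 0.930) for BN.

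This deficit depended on how the length was counted. The table has 39 stretches of 1 Mb or more without any window on the autosomes, and 13 of them reach into the first 10 Mb, on 11 chromosomes. They take up 40.2 Mb, or 20.1%, of the first 10 Mb, against 5.52% of the rest. In an alternative chosen after seeing the data, strength was divided by the length outside these stretches, and the ratio was above 1 in every library, at 1.14 for wild-type SHR, 1.07 for KO/wt, 1.09 for KO/KO, 1.03 for WKY and 1.03 for BN. Why these stretches hold no window was not tested.

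The share of members called as hotspots was close to that of all autosomal windows in most libraries. In wild-type SHR 1268 members were called, or 21.7% against a background of 21.8%, in KO/wt 1318, or 22.5% against 21.6%, and in KO/KO 2238, or 38.2% against 38.8%. In WKY 2390 members were called, 40.8% against 38.3%, and in BN 1094, 18.7% against 20.8%. Only WKY and BN therefore stood more than 2 percentage points from their background, and in opposite directions. As shares of all autosomal hotspots of a library, the first 10 Mb held 6.37% for wild-type SHR, 6.71% for KO/wt, 6.33% for KO/KO, 6.85% for WKY and 5.76% for BN.

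Called hotspots were of ordinary strength. Their median strength was 73 in the first 10 Mb and 72 elsewhere in the wild-type SHR library, 63 and 64 in that of KO/KO, and 72 and 71 in that of BN. It was lower than elsewhere in KO/wt, at 61 against 71, and in WKY, at 195 against 211. Strengths are comparable only within a library.

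The member windows lay closer together than windows elsewhere although there were fewer of them per Mb. There were 29.3 windows per Mb against 33.5 in the rest, but the median distance from a member to the next start was 13903 bp against 16299.5 bp, and 21.7% (20.7 to 22.8) of members overlapped another window against 17.1% (16.9 to 17.4). The close spacing was shared with the last 10 Mb, where the median distance was 13900 bp at 42.0 windows per Mb. There 19.5% (18.7 to 20.4) of the windows overlapped another. In the grid of 100 cells made by the 20 chromosomes and the 5 steps of 2 Mb, the median cell held 59 windows, 10 cells held none and the fullest held 192.

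**Figure D1:**
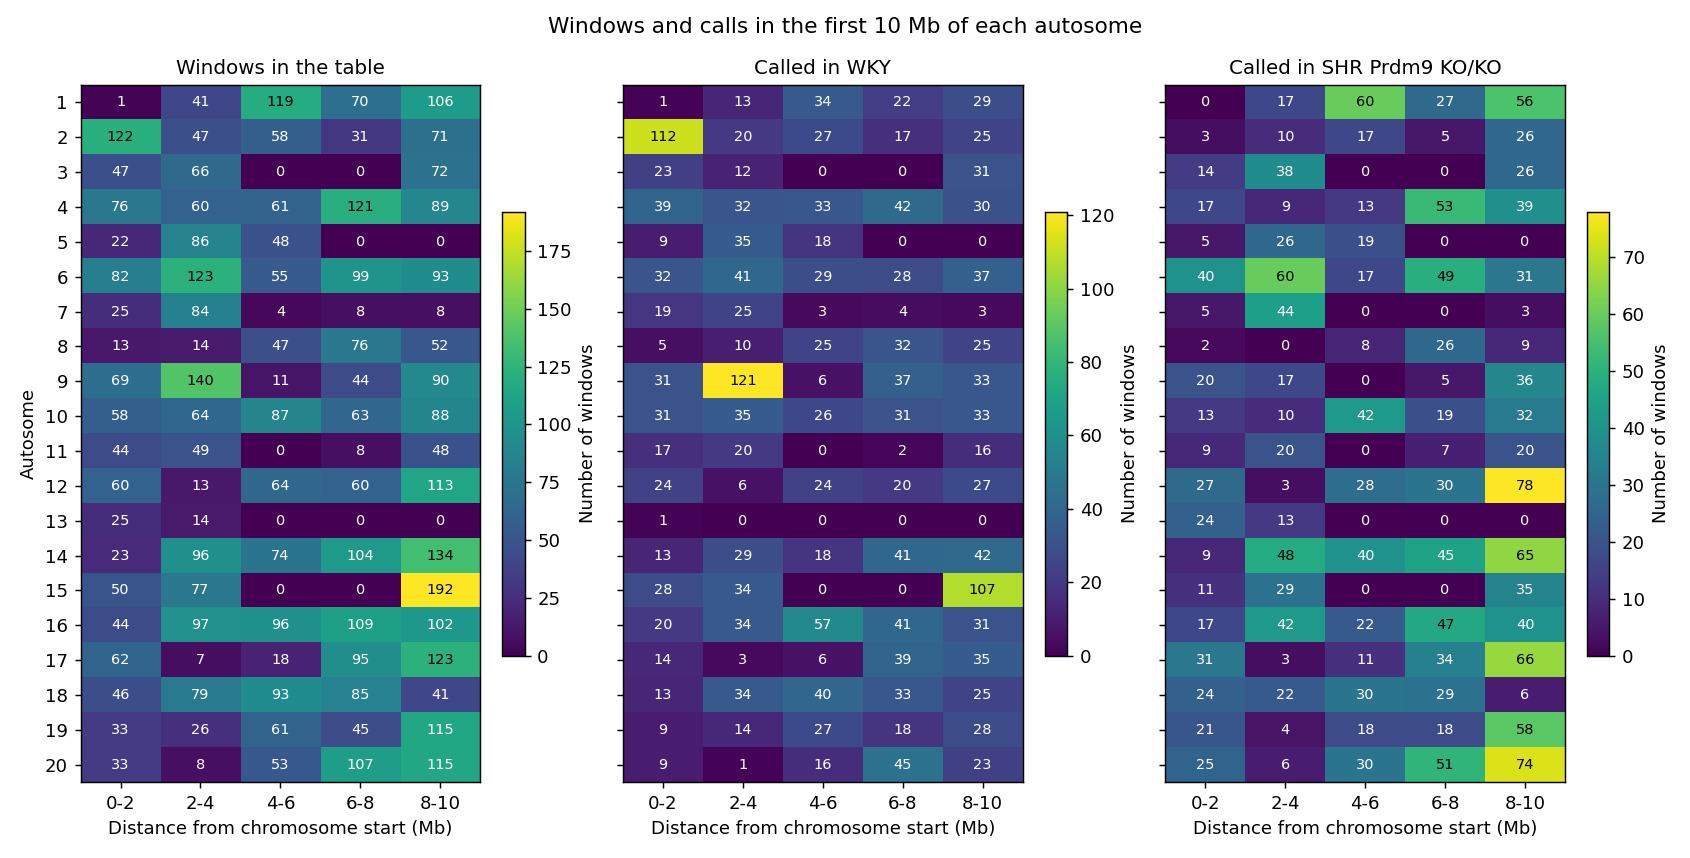
Number of table windows, of windows called in WKY and of windows called in SHR Prdm9 KO/KO in each 2-Mb step (columns, distance from the chromosome start) of each autosome (rows). The empty cells on chromosomes 3, 5, 11, 13 and 15 are window-free stretches, and the WKY panel is brightest in single steps of chromosomes 2, 9 and 15, with 112, 121 and 107 calls.

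The fullest WKY cells came from runs of closely spaced calls. A 200-kb bin was called crowded when it held 12 or more calls of 1 library, a limit chosen after the values were seen. WKY had 39 crowded autosomal bins, and 15 of them lay in the first 10 Mb, with 290 of the 646 calls in such bins, or 44.9%. KO/KO had 110 crowded bins, of which 12 were in the first 10 Mb, and BN had 13, of which 3 were. Wild-type SHR had 0 crowded bins, and the only crowded bin of KO/wt lay outside.

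Of the 15 WKY bins, 14 formed runs on chromosomes 2, 9 and 15, and the other was a single bin of chromosome 20 with 12 WKY calls. On chromosome 2, between 0 and 1.4 Mb, 113 windows were listed, and 109 were called in WKY and in no other library. Their median WKY strength was 124, while no window there exceeded 45 in wild-type SHR. On chromosome 9, between 3 and 4 Mb, 100 of 104 windows were called in WKY, 98 of them in WKY alone, with a median strength of 114. On chromosome 15, between 9 and 10 Mb, 135 windows were listed, 95 were called in WKY and 66 in BN, with 31 called in both, and 65.2% of the windows overlapped another. The median strength of the WKY calls of that run was 216. The densest 200 kb of all, chr15:9435022-9637398, held 61 windows, of which 38 were called in WKY, 36 in BN and 0 in KO/KO.

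The WKY calls of the chromosome 2 and 9 runs were weaker than the usual WKY hotspot, and those of the chromosome 15 run were not. Over all 15 crowded WKY bins of the first 10 Mb the median strength of called windows was 134.5, against 207 for the other WKY calls of the region, and 46.6% of them overlapped another window. SHR has the same Prdm9 allele as WKY, yet only 5 wild-type SHR hotspots were called over the 3 runs, 0 on chromosome 2, 2 on chromosome 9 and 3 on chromosome 15. The part that overlapping windows play in these runs was not tested. Bins were picked for holding many calls, so that leaving them out lowers the WKY counts by construction. Without them the first 10 Mb held 6.14% (5.89 to 6.39) of the WKY hotspots in place of 6.85%, and 38.1% of the remaining members were called in WKY against 37.9% of all remaining windows.

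The strength was not spread evenly over the first 10 Mb. In all 5 libraries the step next to the chromosome start was poor in strength. The step from 8 to 10 Mb was rich in KO/KO, WKY and BN, and only slightly above the average in wild-type SHR and KO/wt. In the first 2 Mb the density ratio was 0.774 (0.653 to 0.916) for wild-type SHR, 0.718 (0.591 to 0.872) for KO/wt, 0.514 (0.435 to 0.608) for KO/KO, 0.657 (0.570 to 0.758) for WKY and 0.638 (0.538 to 0.757) for BN. Every interval lay below 1, and the value for KO/KO was the lowest. Only 10.7% of this step was window-free, less than in any other step of the region, and outside such stretches the ratios were still 0.539 to 0.810. A low density in the first 2 Mb was therefore present under both ways of counting length. It was not particular to the chromosome start in wild-type SHR and KO/wt, which had 0.733 (0.616 to 0.872) and 0.676 (0.554 to 0.826) at 18 to 20 Mb. Outside window-free stretches these libraries had 0.820 and 0.757 there, against 0.810 and 0.752 in the first 2 Mb. KO/KO, WKY and BN had 0.887, 0.761 and 0.694 at 18 to 20 Mb, above their values in the first 2 Mb.

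Between 8 and 10 Mb the ratio was 1.13 (0.977 to 1.30) for wild-type SHR, 1.12 (0.960 to 1.31) for KO/wt, 1.51 (1.37 to 1.66) for KO/KO, 1.27 (1.15 to 1.41) for WKY and 1.40 (1.25 to 1.58) for BN. The intervals of KO/KO, WKY and BN lay above 1 and those of the other two SHR libraries included it. Chromosome 15 gave the largest part of this step in every library, 23.3% for BN and 15.9% for WKY but 12.4% for KO/KO. Without it the ratios were 1.13 for BN, 1.12 for WKY, 1.40 for KO/KO, 1.07 for wild-type SHR and 1.03 for KO/wt. Among the libraries, the value of BN fell by the largest amount when chromosome 15, which holds the run described above, was left out.

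The libraries differed between 2 and 4 Mb. The ratio there was 1.25 (1.10 to 1.43) for wild-type SHR and 1.17 (1.00 to 1.36) for KO/wt, but 0.965 (0.853 to 1.09) for KO/KO, 0.854 (0.754 to 0.968) for WKY and 0.836 (0.720 to 0.970) for BN. Only the SHR libraries with PRDM9 were above 1 in that step when length was counted in full. With 21.2% of the step window-free, the ratios outside such stretches were 1.49, 1.39, 1.15, 1.01 and 0.992 for wild-type SHR, KO/wt, KO/KO, WKY and BN. From 4 to 6 Mb the 5 ratios were between 0.657 for BN and 0.888 for wild-type SHR, and from 6 to 8 Mb between 0.741 for KO/wt and 0.933 for KO/KO, with 27.4% and 24.6% of the length without windows. Outside such stretches these ranges were 0.849 to 1.15 and 0.921 to 1.16.

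**Figure D2:**
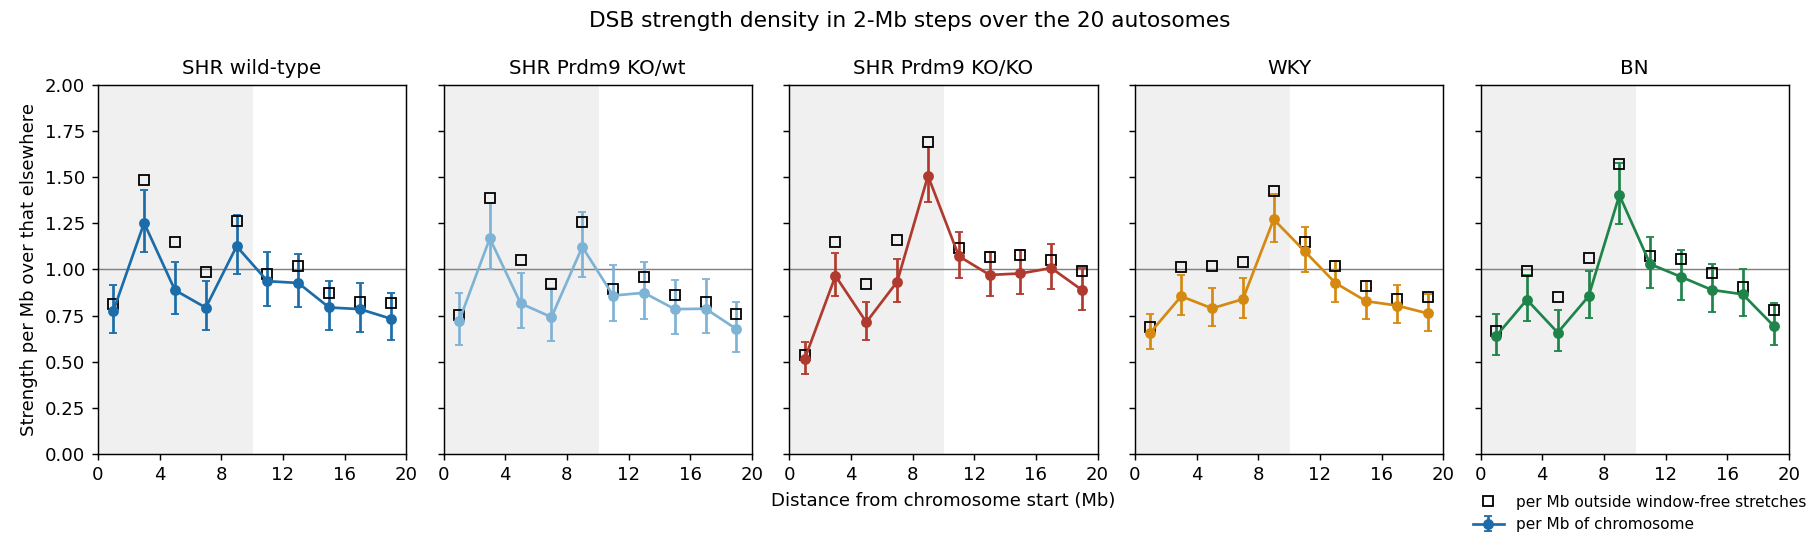
Density ratio (strength per Mb of the step over strength per Mb of the remaining autosomes) in 10 steps of 2 Mb from the chromosome start, pooled over the 20 autosomes, 1 panel per library; filled points with bars give the ratio and its Wilson 95% interval, open squares the ratio per Mb outside window-free stretches, and grey marks the first 10 Mb. All libraries are low at 0 to 2 Mb (0.514 to 0.774) and highest, or second highest, at 8 to 10 Mb (1.12 to 1.51), and the wild-type SHR and KO/wt libraries have a second peak at 2 to 4 Mb.

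Relative to wild-type SHR, and pooled over the autosomes, the KO/KO library was shifted away from the chromosome start, and so were WKY and BN, as given below. The share of strength in the whole first 10 Mb was nearly the same, with a ratio of KO/KO to wild-type of 0.958 (0.881 to 1.04). By step this ratio was 0.667 (0.527 to 0.845) at 0 to 2 Mb, 0.774 (0.647 to 0.926) at 2 to 4 Mb, 0.806 (0.653 to 0.995) at 4 to 6 Mb, 1.18 (0.956 to 1.44) at 6 to 8 Mb and 1.33 (1.12 to 1.58) at 8 to 10 Mb. It remained above 1 from 10 to 20 Mb, at 1.18 (1.08 to 1.28), and in the last 10 Mb of the autosomes, at 1.09 (1.01 to 1.17). The equal totals thus joined 3 steps in which the knockout placed less strength with 2 in which it placed more. Over the whole first 10 Mb the ratio of KO/KO to wild-type exceeded 1 on 8 of 20 chromosomes (1, 6, 12, 13, 14, 15, 16 and 20). Single chromosomes weighed on some steps, with chromosome 16 giving 20.3% of the KO/KO strength at 6 to 8 Mb. The spread of the step ratios over chromosomes is not given here.

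No such gradient was seen for loss of 1 Prdm9 copy. The ratio of KO/wt to wild-type SHR was 0.946 (0.857 to 1.04) over the first 10 Mb and lay between 0.920 and 0.997 in the 5 steps, every interval including 1. These intervals take the libraries as independent although they score the same windows, so that including 1 does not show equality. The WKY library held 0.914 (0.840 to 0.994) of the wild-type SHR share over the region. By step its ratio was 0.851, 0.687 (0.573 to 0.822), 0.890, 1.06 and 1.13 (0.949 to 1.34). The BN library held 0.909 (0.830 to 0.995), with 0.826, 0.672 (0.551 to 0.819), 0.743 (0.591 to 0.934), 1.08 and 1.24 (1.04 to 1.49) by step. Like KO/KO, both were below wild-type SHR in the steps up to 6 Mb and above it from 6 to 10 Mb, with several intervals including 1. The gradient was therefore not particular to the knockout. Over the first 10 Mb the ratio to wild-type SHR exceeded 1 on 7 chromosomes for KO/wt, 9 for WKY and 7 for BN. All 4 comparisons share the wild-type SHR library, so that a deviation of that library moves them together.

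The far ends of the autosomes were richer in strength than the first 10 Mb in every library when length was counted in full. Outside window-free stretches they had the higher ratio in KO/KO, WKY and, barely, BN, and the lower in wild-type SHR and KO/wt. Windows that start within 10 Mb of the last window end had 1.20 times the density of the middle of the chromosomes in wild-type SHR, 1.10 times in KO/wt, 1.31 times in KO/KO, 1.16 times in WKY and 1.10 times in BN. Measured against the same middle, the first 10 Mb had ratios of 0.979 (0.912 to 1.05), 0.915 (0.844 to 0.992), 0.943 (0.890 to 1.000), 0.886 (0.837 to 0.938) and 0.877 (0.819 to 0.938) in the same order. In every library the interval of the first 10 Mb lay below that of the last 10 Mb. None of the last 10 Mb was window-free, however, and outside such stretches the first 10 Mb had ratios to the middle of 1.15 (1.07 to 1.24), 1.08 (0.992 to 1.17), 1.11 (1.05 to 1.18), 1.04 (0.984 to 1.10) and 1.03 (0.964 to 1.10). The last 10 Mb then had 1.13 (1.06 to 1.20), 1.04 (0.964 to 1.12), 1.23 (1.17 to 1.30), 1.09 (1.03 to 1.15) and 1.04 (0.977 to 1.10), so that the intervals of the 2 ends overlapped in all 5 libraries, narrowly in KO/KO.

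Single chromosomes departed from the pooled value in both directions. The density ratio was above 1 in all 5 libraries on 3 chromosomes (4, 6 and 16), below 1 in all 5 on 10 chromosomes (3, 5, 7, 8, 9, 11, 12, 13, 17 and 20) and mixed on the other 7. Chromosomes with a ratio above 1 numbered 10 of 20 for wild-type SHR, 9 for KO/wt, 5 for KO/KO, 8 for WKY and 6 for BN. The median over chromosomes was 1.01 for wild-type SHR, 0.928 for KO/wt, 0.788 for KO/KO, 0.808 for WKY and 0.817 for BN. Outside window-free stretches the counts were 15, 13, 9, 12 and 8 and the medians 1.21, 1.10, 0.904, 1.02 and 0.984.

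**Figure D3:**
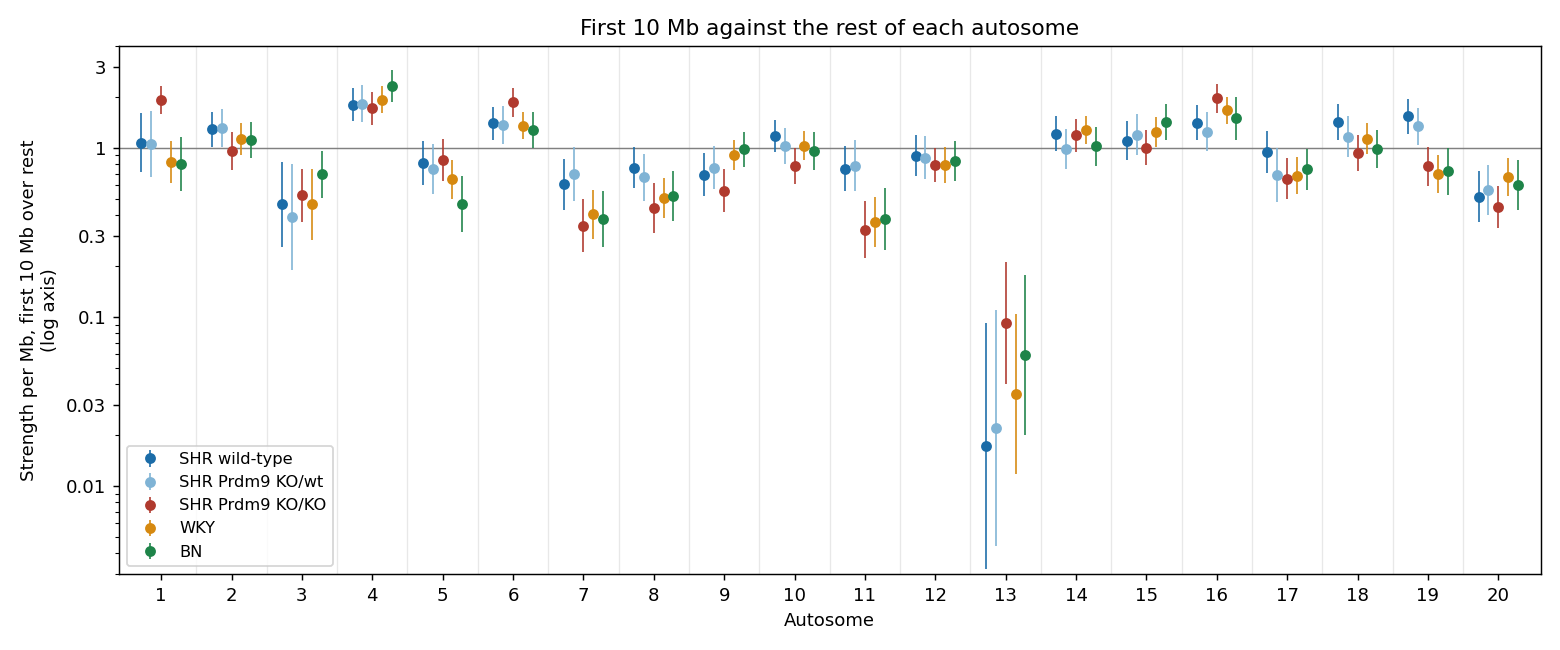
Density ratio of the first 10 Mb over the rest of the same autosome (log axis) for the 5 libraries, with Wilson 95% intervals over the effective number of windows. Chromosome 13 lies far below the others in all 5 libraries (0.0172 to 0.0915), chromosome 4 lies above 1 in all 5 (1.72 to 2.33), and on chromosome 1 only KO/KO has an interval above 1.

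Chromosome 4 had the highest ratio of wild-type SHR (1.80), KO/wt (1.82), WKY (1.92) and BN (2.33), and KO/KO had 1.72 there. The rest of chromosome 4 contains the longest window-free stretch of the table, of 65.2 Mb, and outside such stretches the 5 ratios were 1.24 to 1.68. Chromosome 4 was then no longer the highest, since chromosome 15 had 1.96, 2.12, 2.20 and 2.53 for wild-type SHR, KO/wt, WKY and BN, and chromosome 1 had 2.34 for KO/KO. Chromosome 16 had the highest ratio of KO/KO, 1.96 (1.60 to 2.40), and its window-free stretches lie outside the first 10 Mb and total only 2.98 Mb. On chromosome 1 the KO/KO ratio was 1.90 (1.57 to 2.30), while wild-type SHR had 1.07 (0.714 to 1.61), KO/wt 1.05 (0.671 to 1.64), WKY 0.823 (0.616 to 1.10) and BN 0.800 (0.551 to 1.16). The intervals of KO/KO and wild-type SHR overlapped narrowly, and those of KO/KO and WKY did not.

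Chromosome 19 gave the opposite picture. The first 10 Mb were rich in strength in wild-type SHR, at 1.53 (1.20 to 1.95), and in KO/wt, at 1.34 (1.04 to 1.71), and poorer than the rest in KO/KO, at 0.776 (0.598 to 1.01), WKY, at 0.699 (0.540 to 0.904), and BN, at 0.724 (0.526 to 0.998). SHR and WKY, which have the same Prdm9 allele, had intervals that did not overlap there. Chromosome 11 was alike, with 0.753 (0.551 to 1.03) for wild-type SHR against 0.363 (0.258 to 0.510) for WKY and 0.328 (0.223 to 0.481) for KO/KO.

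The lowest value belonged to chromosome 13, where only 39 windows were listed, between 1826773 and 2937057 bp, and 8.89 Mb of the 10 Mb had no window. Of these 39 windows 37 were called in KO/KO, 1 each in WKY and BN, and 0 in both SHR libraries with PRDM9. The KO/KO strengths there were low, with a median of 36 and a maximum of 104, and the wild-type SHR median was 3 with a maximum of 19. These windows were thus a run of weak calls of KO/KO, as the chromosome 2 and 9 runs were of WKY.

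Between acrocentric and metacentric autosomes, chromosome form was not a clear divider when length was counted in full. The first 10 Mb of the 8 acrocentric autosomes (2 and 4 to 10) had ratios of 1.06, 1.04, 0.920, 0.986 and 0.966 for wild-type SHR, KO/wt, KO/KO, WKY and BN. The 7 metacentric autosomes (14 to 20) had 1.14, 1.00, 0.963, 1.04 and 0.988. Outside window-free stretches the acrocentric autosomes had 1.09, 1.07, 0.946, 1.01 and 0.994 and the metacentric ones 1.27, 1.12, 1.07, 1.16 and 1.10. The metacentric values were thus higher in all 5 libraries by that count, for which no interval was computed. The 5 other autosomes (1, 3, 11, 12 and 13) had 0.617, 0.602, 0.720, 0.495 and 0.569, but 45.6% of their first 10 Mb was window-free, and outside such stretches their ratios were 1.10, 1.07, 1.28, 0.879 and 1.01. These 5 autosomes had the lowest ratio of the 3 classes in every library when length was counted in full, and in KO/KO the highest when it was not.

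The strongest hotspots of each library show what single members look like. Their strengths are given as deposited, and a value may be compared between libraries only roughly, since the scale of each library is unknown. The strongest of wild-type SHR was chr5:2829884-2832884, with a strength of 1241 there, 1842 in KO/wt, 19 in KO/KO, 14 in WKY and 3 in BN. It was called in both SHR libraries with PRDM9 and in neither WKY nor KO/KO, although WKY has the same Prdm9 allele. The next, chr11:9292950-9295950, had 1208 for wild-type SHR, 2141 for KO/wt, 11 for KO/KO, 1126 for WKY and 11 for BN. This was the usual form, high where the SHR and WKY allele was present and near 0 in KO/KO and BN.

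The same form was shown by chr5:2344064-2347064, with 874, 1149, -3, 708 and 4 for wild-type SHR, KO/wt, KO/KO, WKY and BN, and by chr15:3747442-3750442, with 866, 1558, 14, 2753 and 4. The fourth strongest of KO/wt, chr2:4981862-4984862, had 679, 1386, 9, 614 and 7. Below 2 Mb the strongest of wild-type SHR was chr3:1868967-1871967, with 696, 718, 3, 1377 and -5, and the strongest of both KO/wt and WKY was chr18:977814-980814, with 539, 795, 0, 1621 and 19. These 5 windows were called in wild-type SHR, KO/wt and WKY, and in neither KO/KO nor BN.

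The strongest members of WKY included windows of other forms. At chr1:5879419-5882419 the strength was 2788 for WKY but -2 for wild-type SHR, 9 for KO/wt, -2 for KO/KO and 3 for BN. Like the strongest of wild-type SHR, this window was strong in only 1 of the 2 strains that share a Prdm9 allele. The strongest of WKY, chr12:5494137-5497137, had strength in every library, 265, 507, 465, 3813 and 964, and was called in WKY only. At chr6:9528863-9531863 the strengths were 553, 476, 2, 2724 and 11, with calls in wild-type SHR, KO/wt and WKY.

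The 4 strongest hotspots of BN were called in BN only. The window chr3:1848318-1851318 had a strength of 1119 for BN and 0, 6, 0 and 28 for wild-type SHR, KO/wt, KO/KO and WKY, and it starts 20.6 kb from the chromosome 3 hotspot of SHR and WKY named above, which had -5 for BN. The others were chr6:3678659-3681659 with 1052, chr1:3698671-3701671 with 953 and chr9:1404252-1407252 with 884 for BN, and no other library exceeded 13 at any of them.

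The 4 strongest hotspots of KO/KO had less strength in KO/wt and least of the SHR libraries in the wild type. At chr5:4818345-4821345 the strength was 1344 for KO/KO, 114 for KO/wt, 22 for wild-type SHR, 49 for WKY and 35 for BN. At chr1:8855798-8858798 it was 1106 for KO/KO, 243 for KO/wt and 21 for wild-type SHR, and at chr16:2520045-2523045 it was 872, 235 and 54, with both windows called in all 3 SHR libraries. At chr4:9938997-9941997 it was 912, 60 and 20, with calls in KO/KO and KO/wt. These windows were picked for their KO/KO strength, which favours KO/KO in first place. KO/wt exceeded wild-type SHR at all 4, also after scaling to the autosomal sums, and the deposited values of WKY and BN were 49 or lower.

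Nearer to the chromosome start, chr4:197497-200497 had 834 for KO/KO, 59 for KO/wt, 37 for wild-type SHR, 143 for WKY and 11 for BN, with calls in every library but BN. The strongest KO/KO member of chromosome 12, chr12:4192420-4195420, had 359 for KO/KO, 33 for KO/wt and 2 for wild-type SHR, and that of chromosome 20, chr20:9862151-9865151, had 323, 27 and 1. The window just inside the 10-Mb limit, chr15:9999783-10002783, had 36, 62, 36, 340 and 152 for wild-type SHR, KO/wt, KO/KO, WKY and BN, and the nearest one outside, chr12:10000130-10003130, had 133, 356, 5, 346 and 11.

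Windows called in all 3 wild-type strains were as rare here as elsewhere. Of the members, 19 were of this kind, or 0.325% against 0.332% of the other windows, and they lay on 13 chromosomes. None was called in KO/KO, where their strengths ranged from -10 to 17, while 15 were also called in KO/wt. This was much as elsewhere, where 235 of 283 such windows were called in KO/wt and not in KO/KO, and 1 was called in both. Their BN strengths ran from 32 to 244 with a median of 65, and their wild-type SHR strengths from 21 to 400 with a median of 59. The strongest in BN, chr15:3415813-3418813, had 296, 398, -10, 389 and 244 for wild-type SHR, KO/wt, KO/KO, WKY and BN.

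Windows called in both KO/wt and KO/KO were more frequent in the first 10 Mb than elsewhere. They made up 4.84% of the members, 283 windows, against a background of 2.21% of all autosomal windows, and 244 of them were called in no wild-type strain. Of the KO/wt hotspots in the first 10 Mb 21.5% (19.3 to 23.8) were also called in KO/KO, against 9.47% (9.05 to 9.90) of those elsewhere. Counted the other way, 12.6% (11.3 to 14.1) of the KO/KO hotspots starting there were called in KO/wt, against 5.24% (5.0 to 5.48). Both shares were over 2 times those of the rest.

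The share of KO/wt hotspots called in KO/KO was low at the very start. It was 8.72% (5.51 to 13.5) at 0 to 2 Mb, then 24.1%, 21.7%, 23.5% and 24.8% in the next 4 steps. It was 14.5% (12.7 to 16.6) from 10 to 20 Mb and 8.12% (7.70 to 8.56) in the interior beyond, and 17.5% (15.8 to 19.3) in the last 10 Mb. The 4 steps from 2 to 10 Mb thus had the highest shares among the regions compared.

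This difference was uneven over chromosomes. The share was higher in the first 10 Mb than in the rest on 11 of the 19 chromosomes that had KO/wt hotspots there. On chromosome 1 it was 48.7% (39.8 to 57.7) against 5.33%, on chromosome 14 35.4% against 16.0%, on chromosome 6 32.5% against 8.55% and on chromosome 16 27.9% against 10.2%. These 4 chromosomes held 168 of the 283 windows, and without them the share was 13.5% (11.4 to 16.0) against 9.68% (9.20 to 10.2). Leaving out each chromosome in turn gave 18.9%, without chromosome 1, to 22.6%.

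Stronger default sites were more often called in KO/wt, and in the strong classes both chromosome ends had more such calls than the rest. Default sites were taken as windows called in KO/KO and in no wild-type strain, and there were 2188 among the members. They were divided into 5 classes of KO/KO strength, with limits at 32, 51, 81 and 143. Of the strongest class, above 143, 177 of 454 members were called in KO/wt, or 39.0% (34.6 to 43.5), against 18.5% elsewhere and 35.6% (31.8 to 39.6) in the last 10 Mb. In the next class it was 11.7% (8.94 to 15.1) against 2.16% (1.84 to 2.54), with 7.32% (5.54 to 9.63) in the last 10 Mb, and in the third class 2.82% against 0.480%. The intervals of the 2 ends overlapped in both of the strongest classes. In the weakest 2 classes the shares were 1.09% or lower in both regions. The weakest class had 1.09% (0.465 to 2.52), from 5 calls, against 0.259% (0.160 to 0.421), and the next 0.233% against 0.395%.

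**Figure D4:**
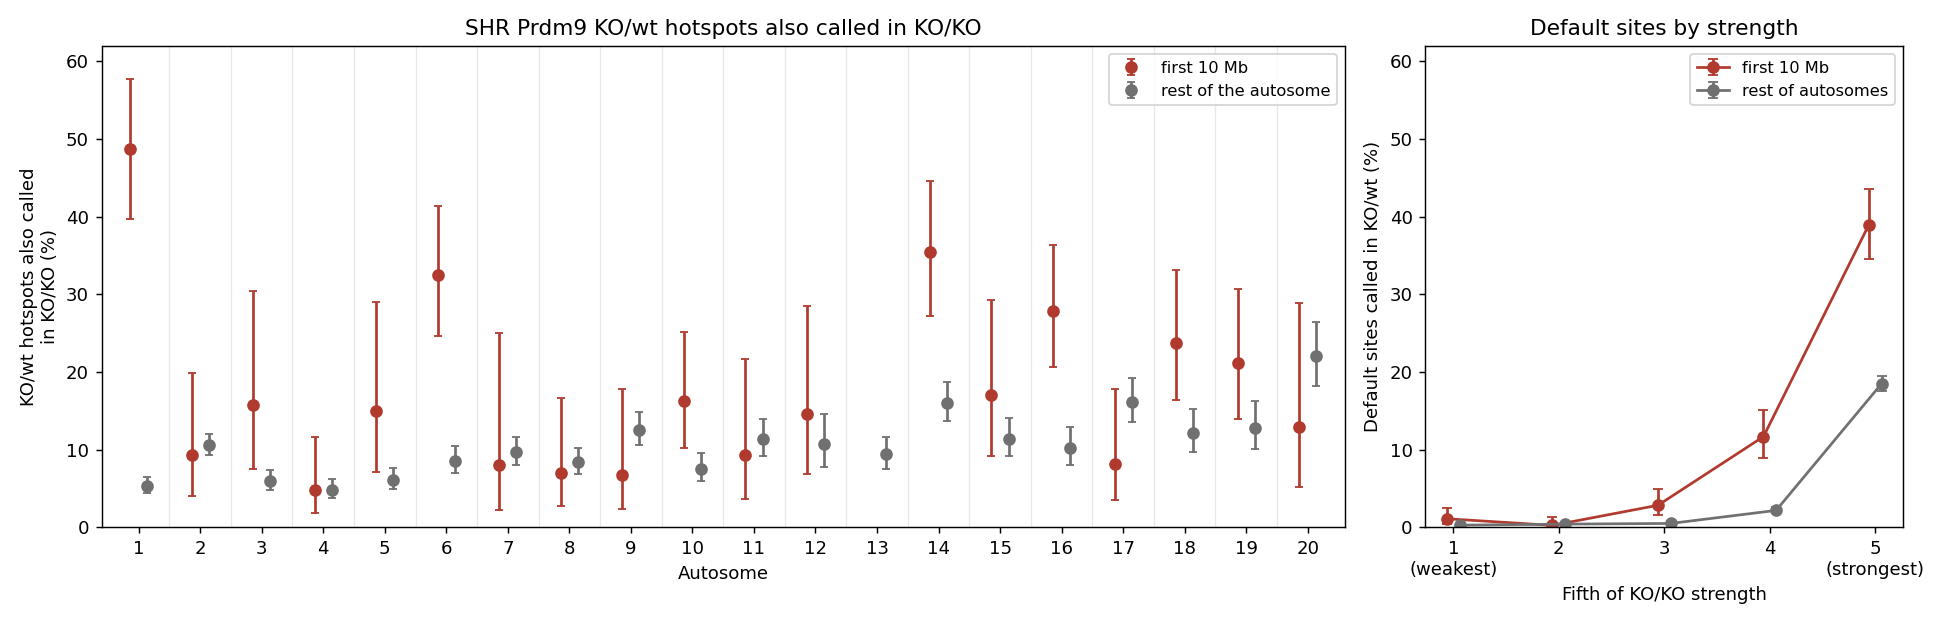
Left, share of SHR Prdm9 KO/wt hotspots also called in KO/KO per autosome, in the first 10 Mb (red) and the rest (grey), with Wilson 95% intervals; chromosome 13 had no KO/wt hotspot in the first 10 Mb. Right, share of default sites called in KO/wt in 5 classes of KO/KO strength. Chromosomes 1, 6, 14 and 16 stand apart on the left (27.9% to 48.7%), and on the right the first 10 Mb lie above the rest in every class but the second weakest.

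The strengths at default sites pointed the same way as the calls. The 2188 member default sites held 15.7% of the KO/wt strength of the first 10 Mb, against 11.3% at default sites elsewhere, 17.8% in the last 10 Mb and 15.2% from 10 to 20 Mb. They held 5.81% of the wild-type SHR strength against 5.05%. In the other wild-type strains, whose calls had been excluded by the definition too, the shares were 6.49% against 6.18% for WKY and 11.2% against 11.01% for BN. Between the first 10 Mb and the rest the KO/wt share therefore differed by more than the 3 wild-type shares did, but the last 10 Mb had a higher share than the first 10 Mb in all 4 libraries. Such shares also depend on the number of default sites in a region. Per default site the mean KO/wt strength was 4.78 millionths of the autosomal sum, against 3.24 elsewhere, 3.90 in the last 10 Mb and 3.22 from 10 to 20 Mb. For wild-type SHR it was 1.87, against 1.44, 1.53 and 1.31. Between the first 10 Mb and the rest it was 1.91 against 1.77 for WKY and 3.27 against 3.16 for BN. Of the 2238 KO/KO hotspots among the members, 32 had a call in wild-type SHR, which is 0.547% of the members against a background of 0.293%. These were 2.52% (1.79 to 3.54) of the wild-type SHR hotspots of the region, against 1.26% (1.11 to 1.43) elsewhere and 2.03% (1.46 to 2.81) in the last 10 Mb. Calls shared with KO/KO were thus more frequent here in wild-type SHR too. Without chromosomes 1, 6, 14 and 16 the shares were 1.48% (0.865 to 2.51) against 1.33% (1.15 to 1.53).

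Most hotspots of wild-type SHR were also hotspots of WKY. In both libraries 1107 members were called, 18.9% of the members against a background of 19.6%. They were 87.3% (85.4 to 89.0) of the wild-type SHR hotspots of the region, against 89.7% (89.2 to 90.1) elsewhere, and the share was 80.8% (74.9 to 85.5) at 0 to 2 Mb and 90.4% at 6 to 8 Mb. Of the WKY hotspots only 46.3% (44.3 to 48.3) were called in wild-type SHR, against 51.4% elsewhere, and without crowded bins these values were 52.5% and 52.0%. The bins left out hold many WKY calls and few of SHR, so that this rise follows from leaving them out.

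Windows called in both WKY and BN were 63, or 1.08% of the members against a background of 0.612%. They were 5.76% (4.53 to 7.30) of the BN hotspots of the region against 2.77% (2.53 to 3.02) elsewhere, but 43 of the 63 lay between 8 and 10 Mb. Without crowded bins 33 were left, 3.22% (2.30 to 4.49) against 2.72% (2.49 to 2.97), and these intervals overlap, after a choice of bins that itself removes BN and WKY calls. In the chromosome 15 run 31 windows were called in both.

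At hotspots called in both strains, WKY was relatively weaker than wild-type SHR close to the chromosome start. The median log2 ratio of scaled strength, WKY over wild-type SHR, was -0.64 at 0 to 2 Mb, -0.57 at 2 to 4 Mb, -0.48 at 4 to 6 Mb, -0.11 at 6 to 8 Mb and 0.10 at 8 to 10 Mb. It was -0.08 at 16696 shared hotspots elsewhere, -0.03 from 10 to 20 Mb and -0.09 in the last 10 Mb. In the first 6 Mb, a limit chosen after these values were seen, 634 shared hotspots had a median of -0.59, and 72.6% were below 0 against 53.9% elsewhere. The median was below that of the rest of the same chromosome on 15 of 19 chromosomes, and leaving out each chromosome in turn gave -0.64 to -0.54.

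The chromosomes with the largest shifts were 19, at -1.45 over 37 shared hotspots, 20, at -1.44 over 8, 8, at -1.40 over 20, 7, at -1.32 over 17, and 11 and 17, both at -1.31. Chromosomes 4, 5, 9 and 16 were not below their own rest. Since wild-type SHR enters each of these ratios, WKY was also set against KO/wt, the other SHR library with PRDM9. The median over 526 shared hotspots of the first 6 Mb was -0.20, against 0.13 elsewhere, and lower than the rest on 13 of 19 chromosomes. In these first 6 Mb the shift had the same direction and was smaller. It did not extend further, since from 6 to 10 Mb the median against KO/wt was 0.43, above the rest and below it on only 6 of 18 chromosomes, and over the whole first 10 Mb it was 0.08.

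Within SHR, hotspots called in both KO/wt and wild-type SHR were also relatively weaker in KO/wt over the whole first 10 Mb. The median log2 ratio was -0.48 at 925 shared hotspots, against -0.22 elsewhere, and it was below the rest on 16 of 19 chromosomes. It was -0.43 in the last 10 Mb, -0.37 from 10 to 20 Mb and -0.19 in the interior beyond, so that the far ends had nearly the same value. By step it lay between -0.56 and -0.33, nearest to 0 in the first step. The share of KO/wt hotspots called in wild-type SHR was 70.2% (67.7 to 72.6) against 81.0% (80.5 to 81.6), and 72.1% (70.0 to 74.1) in the last 10 Mb. The 2 comparisons with wild-type SHR share that library.

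**Figure D5:**
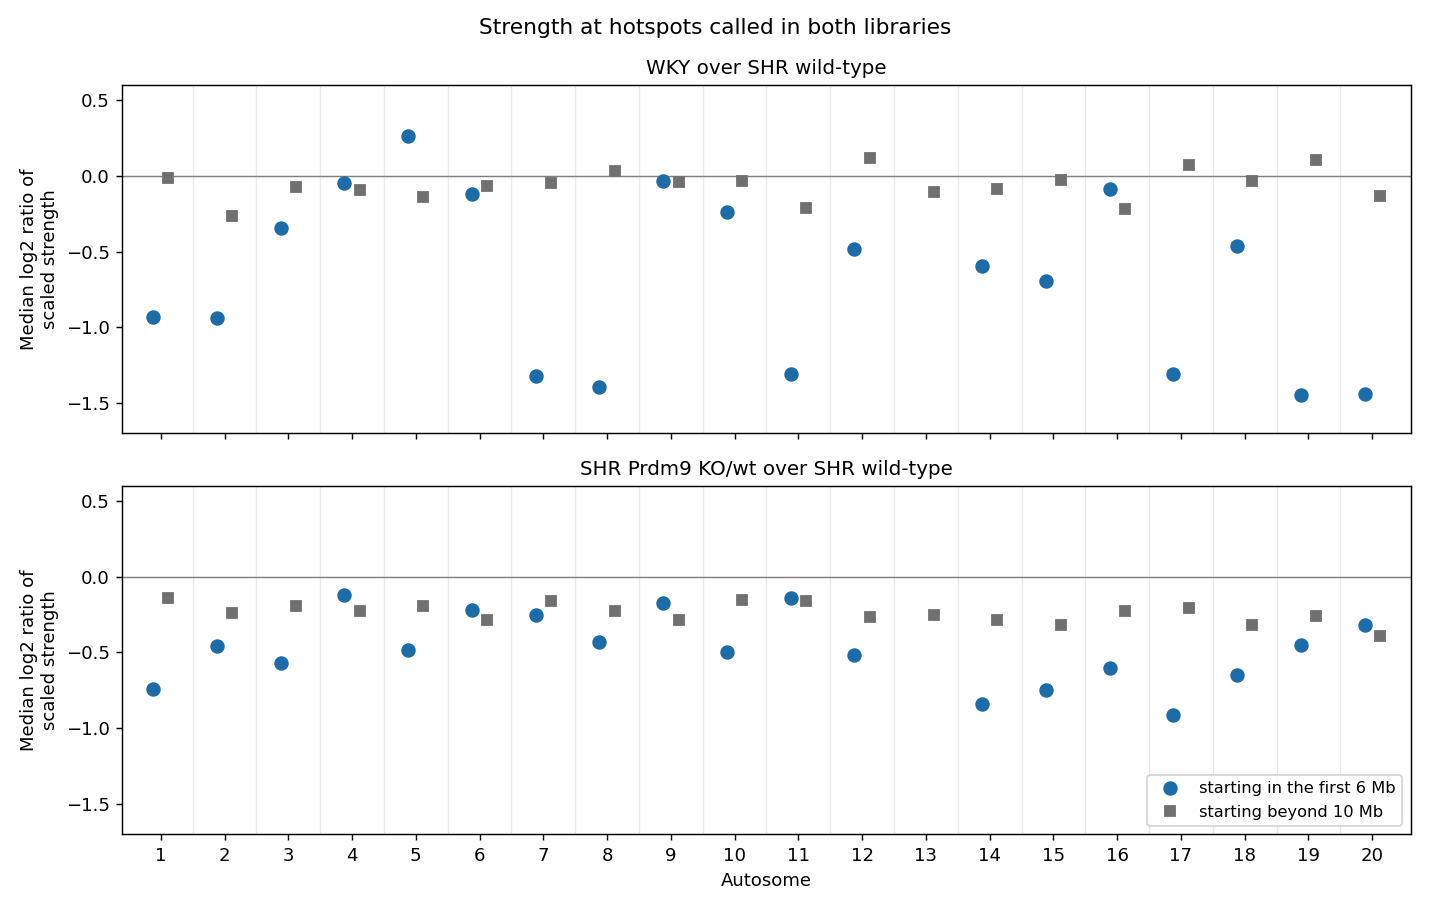
Median log2 ratio of scaled strength at hotspots called in both libraries, per autosome, for windows that start in the first 6 Mb (blue circles) and beyond 10 Mb (grey squares). In the upper panel, WKY over wild-type SHR, 15 of 19 circles lie below their square, down to -1.45 on chromosome 19; in the lower panel, KO/wt over wild-type SHR, 14 of 19 do.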

How the data were processed

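Testes of adult rats were profiled by DMC1 SSDS, 1 library per condition. Per the labels and the published methods, the authors aligned reads to rn5 with BWA 0.7.12, kept uniquely mapping type 1 single-stranded fragments of high mapping quality, and called hotspots with MACS2 2.1.0.20150420, with bedtools 2.23.0 also named. The deposited table gives a strength score per library and window, of a normalization not given in the sources used here, and a mark of 1 or 0 for a call. The number of reads per library is not in the columns used, so the depth is unknown.

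Members were windows with a start below 10000000 bp on chromosomes 1 to 20. The members, lists and comparisons were chosen with earlier results of these data known. Strengths were scaled to the autosomal sum with negatives at 0. Intervals of strength shares are Wilson intervals at Kish's effective number of windows, those of call shares Wilson intervals over hotspots. Density ratios carry the interval of their share. Ratios between libraries have normal intervals on the log scale, with the same effective numbers and the libraries taken as independent. No p-value was computed. Windows named were the 4 strongest called members of each library, members called in all 3 wild-type strains, the strongest below 2 Mb, and the strongest KO/KO members of chromosomes 12 and 20. Without an rn5 genome no window was annotated to genes. The tools were scipy 1.17.1, pandas 2.3.3 and numpy 2.4.6 under Python 3.11.15, and figures were drawn with matplotlib 3.10.9. Functions were tested on simulated data and small made-up inputs, and 8 of 8 checks were recovered. The checks of the density ratio used 91120 windows placed at random, without the clustering of the real windows.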

Additional observations from a re-analysis of the deposited data

How the results depend on the processing

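No paired analysis was possible because each condition had 1 library and no result came from a test. Of 107 alternative values, 67 lay inside the interval printed with the reported value, 35 lay outside it, and 5 lay outside it and on the other side of 1 from a reported interval that excluded 1. Per Mb outside window-free stretches the density ratio was 1.14 (wild-type SHR), and it crossed 1 to reach 1.07 (KO/wt), 1.09 (KO/KO), 1.03 (WKY) and 1.03 (BN). The first 20 Mb gave 0.886 (wild-type SHR) and 0.835 (KO/wt), and the first 5 Mb 0.736 (KO/KO), 0.774 (WKY) and 0.730 (BN). Called windows alone gave 0.822 (KO/wt) and 0.800 (BN), windows that overlap no other 0.858 (KO/KO), and the median of chromosomes 0.788 (KO/KO) and 0.808 (WKY). The hotspot share follows the length of the region: with the first 5 Mb it was 3.25%, 3.31%, 2.64%, 3.41% and 2.27%, and with the first 20 Mb 12.6%, 12.98%, 14.2%, 13.2% and 12.1% (wild-type SHR, KO/wt, KO/KO, WKY, BN). Hotspots called in no other library gave 8.71%, 8.82%, 5.87% and 7.56% (wild-type SHR, KO/wt, KO/KO, WKY). Without crowded bins it was 6.05% (KO/KO) and 6.14% (WKY), without chromosomes 12 and 20 5.73% (KO/KO) and 6.56% (WKY), with windows that overlap no other 6.05% (KO/KO), 6.48% (WKY) and 5.40% (BN), and at or above the median strength 5.96% (KO/wt) and 6.41% (WKY). Counting hotspots in place of strength, the ratio to wild-type SHR was 1.05 (KO/wt) and 1.08 (WKY), above 1 where the strength ratios of 0.946 and 0.914 were below it. Beyond the stretches, bins and lengths removed by construction, the causes were not tested. The unknown depth limits what can be said of weak windows.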
